A study of Homo sapiens with 76 samples.

Results

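The genes described here encode the GTPase Ran, its regulators and the receptors that carry proteins through the nuclear pore. They were taken by symbol: RAN, RANBP1, RCC1, NUTF2, KPNA2, KPNB1, CSE1L and XPO1. All 8 had a row in the deposited table, which holds 17513 gene rows in all. The table counts UMIs (unique molecular identifiers) in 76 single HEK293 cells. A UMI is a random stretch joined to each cDNA before amplification, so that PCR copies of it collapse to 1 count. HEK293 is an established human embryonic kidney line. The cells were grown with fetal calf serum, no treatment is named in the labels, and they form 1 group, so no groups were compared. They were captured on a microfluidic chip with 96 chambers, lysed with spike-in RNA at a stated 20000 molecules per cell, and read at the 5' ends of polyadenylated transcripts. The labels name no separate cultures, so the line counts as 1 sample. Every SD and correlation describes these 76 cells, and no p-value is given.

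Ran is a small GTPase that is held in its GTP form in the nucleus and in its GDP form in the cytoplasm, and this difference gives transport its direction. Import receptors bind cargo in the cytoplasm and release it on meeting Ran-GTP in the nucleus, while export receptors bind cargo together with Ran-GTP and release it in the cytoplasm. In mitosis, when the nuclear envelope breaks down, Ran-GTP around chromosomes frees spindle assembly factors such as TPX2 from importins. The values that follow relate KPNA2, which encodes an importin alpha, and the other 7 genes to mitotic genes and to each other.

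Cells gave a median of 20966 endogenous UMIs (7305 to 43392) and a median of 2198.5 spike-in UMIs (1390 to 3132). Values per cell are given as UMIs, or as a share in UMIs per 10000 endogenous UMIs of that cell. No 2 cells held identical values. Of the markers checked, the epithelial keratin gene KRT18 was seen in 45 cells, KRT8 in 19 and the epithelial gene EPCAM in 1. No value is given for PAX2, PAX8 and CDH1. Of the neuronal markers, UCHL1 was seen in 70 cells, NEFM in 49 and MAP2 in 0. The blood and immune markers gave 6 UMIs over all cells, the fibroblast and muscle markers 15 and the liver markers 1.

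Promoter sequences are shown for KPNA2, the gene that followed the mitotic genes, and for RAN, the most abundant of the genes, which did not. They are from RefSeq (GRCh38.p14, plus strand of both chromosomes), whose build differs from the hg19 build named for the deposited files. Each is the stretch of 250 bases that ends just before the annotated start. Capitals mark matches, on either strand, to CCAAT (the box bound by NF-Y), TTTGAA and TTCGAA (the core of the cell cycle homology region of late cell cycle promoters and a variant of it) and CACGTG (the E-box core to which MYC binds). None of the marked matches overlapped another.
KPNA2, chr17:68035485-68035734: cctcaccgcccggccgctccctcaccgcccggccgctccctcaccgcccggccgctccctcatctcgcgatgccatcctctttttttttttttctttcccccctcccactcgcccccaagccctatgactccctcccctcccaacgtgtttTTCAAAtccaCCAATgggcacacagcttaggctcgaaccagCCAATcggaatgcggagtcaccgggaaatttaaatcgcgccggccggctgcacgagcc
RAN, chr12:130871816-130872065: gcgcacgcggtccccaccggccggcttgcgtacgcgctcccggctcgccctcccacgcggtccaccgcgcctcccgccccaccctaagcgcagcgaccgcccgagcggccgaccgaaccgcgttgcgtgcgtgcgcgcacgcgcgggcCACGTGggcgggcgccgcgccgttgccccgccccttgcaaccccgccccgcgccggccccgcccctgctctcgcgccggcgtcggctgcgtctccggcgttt
In KPNA2 the matches are TTTGAA on the opposite strand, with its first base 99 bases before the start, and CCAAT at 89 and 58 bases before it. In RAN the E-box core begins 102 bases before the start, and a TTTGAA that begins 3 bases before the start crosses into the transcript and is not marked. Of the 8 genes, 6 were matched in the RefSeq promoter table (RANBP1 and KPNB1 were not).

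To compare KPNA2 with mitotic genes, windows of 30 bases around TTTGAA (capitals) are shown on the strand that carries it. They come from KPNA2, where the motif shown begins at position 33 of the transcript, from CKS2 and CDK1, which varied with KPNA2, and from CDC20, which did not. Of the 5 mitotic genes at or above a rho of 0.3 with KPNA2, CKS2 and CDK1 gave such a window. For ARL6IP1, the highest of them, no TTTGAA with enough bases on both sides was found, and UBE2C and BUB3 were not matched in the table.
KPNA2, chr17:68035755-68035784, plus strand: cgaggtggacccTTTGAAcgcagtcgccct
CKS2, chr9:89311154-89311183, minus strand: caacgatccggaTTTGAAtccgacagcccg
CDK1, chr10:60778475-60778504, minus strand: ccaagagccagcTTTGAAgccaagtgcgag
CDC20, chr1:43358904-43358933, plus strand: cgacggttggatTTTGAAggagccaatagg
Over promoter windows (250 bases before the start and 50 after it), 34.6% of the 35116 windows held CCAAT, 15.2% TTTGAA, 1.45% TTCGAA and 7.26% CACGTG. Counted per gene, TTTGAA stood in a window of 34 of 52 mitotic genes matched (65.4%), of 4 of 28 S phase genes (14.3%) and of 18.2% of all 27305 genes. Of the 6 matched genes described here it stood in 3, KPNA2, RAN and CSE1L. CACGTG stood in 3 of these 6 (RAN, RCC1 and XPO1), in 15 of 29 nucleolar and growth genes (51.7%) and in 8.77% of all genes. These are matches of letters, and binding was not measured.

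RAN gave the most UMIs of the 8 genes and RCC1 the fewest. A UMI here marks the 5' end of a copied molecule, so counts were not divided by transcript length. Long transcripts are less likely to be copied to their 5' end, and the order given is therefore an order of counts. Together the 8 genes took 30.5 ± 6.48 UMIs per 10000 (SD, n = 76 cells).

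RAN had between 4 and 62 UMIs per cell, with a median of 23 (24.2 ± 13.5, SD, n = 76 cells). It was seen in every cell, and as a share it ranged from 3.37 to 17.1 per 10000 with a median of 10.9. RANBP1, which encodes a binding protein that helps the GTPase-activating protein turn Ran-GTP over in the cytoplasm, had between 3 and 51 UMIs with a median of 14 (16.1 ± 9.75). It too was seen in every cell. NUTF2 encodes nuclear transport factor NTF2, which carries Ran-GDP back into the nucleus. It had between 0 and 29 UMIs with a median of 9 (9.99 ± 6.37) and was missing from 1 cell. RCC1 encodes the chromatin-bound exchange factor that loads Ran with GTP. It had between 0 and 5 UMIs with a median of 0 (0.855 ± 1.19) and was seen in 35 of 76 cells (46.1%, exact Clopper-Pearson 95% interval 34.5% to 57.9%). RCC1 was thus near the limit of this depth, and its absence from a cell does not show that the cell lacked the transcript.

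Among the receptors KPNA2, the importin alpha that links cargo with a classical nuclear localisation signal to importin beta, led. It had between 0 and 38 UMIs with a median of 7 (8.07 ± 7.23), and was seen in 70 cells (92.1%, interval 83.6% to 97.0%). The 6 cells with no KPNA2 UMI were below the median depth, with 9668 to 16598 endogenous UMIs. Their summed share of the mitotic genes described below was also under the median of 50.5 per 10000, from 25.7 to 44.4. What left them without a KPNA2 UMI was not tested. CSE1L, the exporter that returns importin alpha to the cytoplasm, had between 0 and 15 UMIs with a median of 4 (4.47 ± 3.27) and was seen in 72 cells. KPNB1, which encodes importin beta, had between 0 and 19 UMIs with a median of 3 (4.08 ± 3.58) and was seen in 70 cells. XPO1, the exporter of proteins with a leucine-rich export signal, had between 0 and 6 UMIs with a median of 1 (1.55 ± 1.68) and was seen in 49 cells (64.5%, interval 52.7% to 75.1%).

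**Figure D1:**
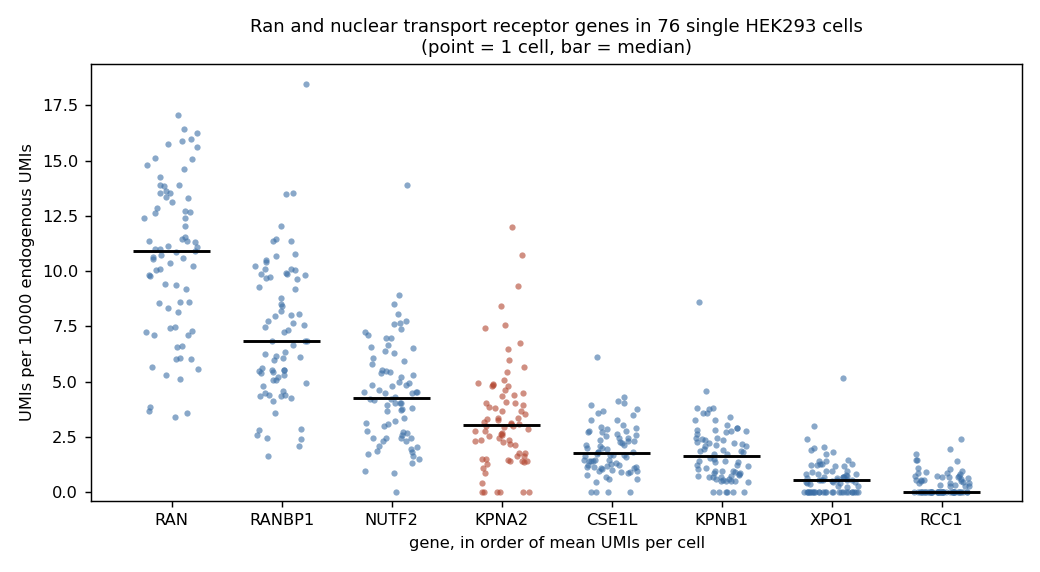
UMIs per 10000 endogenous UMIs (y axis) of the 8 genes (x axis, in order of mean UMIs per cell) in 76 cells, with 1 point per cell and a bar at the median. The medians step down from 10.9 for RAN to 0 for RCC1, and all genes but RAN and RANBP1 have cells at 0.

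Within single cells the order of counts held for most cells but not for all neighbours. RAN was above RANBP1 in 59 of 76 cells, and RANBP1 above NUTF2 in 57. NUTF2 was above KPNA2 in 49 cells and below it in 19, and KPNA2 was above CSE1L in 51 cells. CSE1L and KPNB1 could not be put in order: CSE1L was higher in 34 cells and lower in 30, with a mean difference of 0.395 UMI and an SD of that difference of 3.63. KPNB1 was above XPO1 in 55 cells. XPO1 was above RCC1 in 38 cells, equal in 25 and below in 13.

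Rows of near-identical copies and neighbours held few UMIs. The RAN pseudogenes RANP1 and RANP6 had a UMI in 7 cells and 1 cell. RCC1 shares its upstream start region with SNHG3, a host gene of small nucleolar RNAs, which had 1.30 ± 1.55 UMIs per cell. How reads were assigned between them is not given in the sources used here, so the level of RCC1 is uncertain. TRMT2A overlaps RANBP1 and CENPT overlaps NUTF2 on the opposite strand. They averaged 0.513 and 0.737 UMI per cell, and reads cannot be told apart between such pairs if strand was not used. KPNA2 and NUTF2 also have annotated processed pseudogenes, and how multi-mapping reads were handled is not given either.

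KPNA2 had the highest dispersion of the 8 genes. Dispersion sets the squared gap between the observed count and the one the depth of a cell predicts against that predicted count, averaged over cells, and counting noise alone gives 1. The value for KPNA2 was 3.55, above 96.5% of 2803 other genes with a mean of at least 1 UMI. RANBP1 had 2.63, NUTF2 2.28, RAN 2.12, KPNB1 1.92, XPO1 1.75, CSE1L 1.34 and RCC1 1.32. Spike-in RNAs, equal between cells by design, reached 2.20, and the 13 of them averaging 4 to 30 UMIs lay between 1.29 and 2.04. KPNA2, RANBP1 and NUTF2 were above the highest spike-in, 3 of the 8 genes, against 21.6% of all 2810 genes. RAN, KPNB1, XPO1, CSE1L and RCC1 were not.

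Dispersion grows with abundance, so the relative spread beyond counting noise was set beside it. Expressed as a coefficient of variation it was 56.2% for KPNA2, 47.5% for KPNB1, 35.8% for NUTF2, 31.7% for RANBP1, 27.5% for CSE1L and 21.5% for RAN. For XPO1 and RCC1 it came to 69.7% and 61.5%, but at means of 1.55 and 0.855 UMI those values rest on few UMIs. The same 13 spike-ins had a squared coefficient of 0.0480 at the median and 0.177 at most, against 0.316 for KPNA2 and 0.0464 for RAN. Those nearest RAN in mean, at 23.6 and 24.4 UMIs, had 0.0216 and 0.0333, below RAN. With spike-in scaling, 5 of the 8 genes were above the highest spike-in. With cells thinned to 10940 UMIs 1 was, KPNA2 at 2.25. The spike-ins were not thinned, and thinning brings a dispersion nearer to 1. The count after thinning therefore cannot be compared with the count at full depth.

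**Figure D2:**
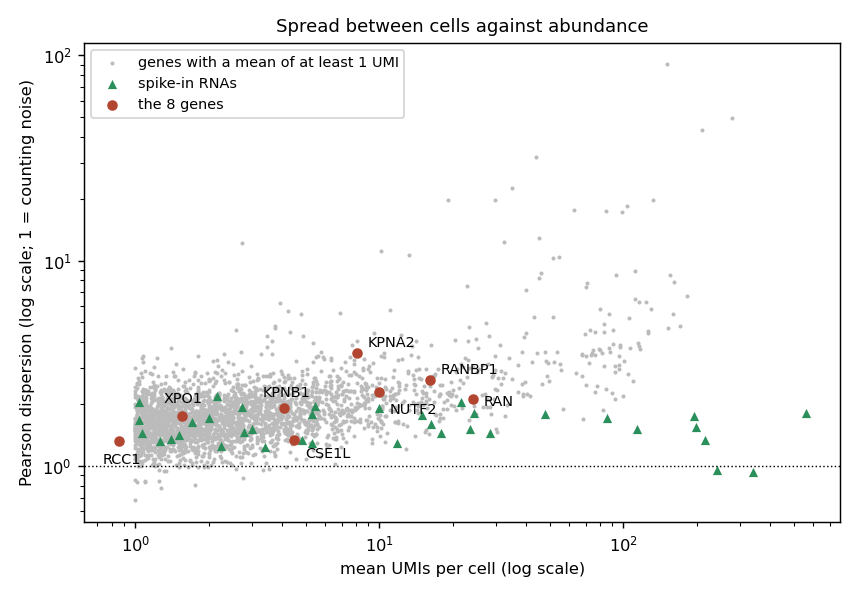
Pearson dispersion (y axis, log scale, dotted line at counting noise) against mean UMIs per cell (x axis, log scale) for 2810 genes, the spike-in RNAs and the 8 genes. KPNA2, at 3.55, is the highest of the 8 genes, and CSE1L at 1.34 lies among the spike-ins of similar mean.

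The share of KPNA2 went with that of mitotic genes. The mitotic list held 62 genes, among them genes of cyclins, the spindle, the kinetochore and mitotic exit. It also held genes outside these classes, such as ARL6IP1, HMGB2, LBR and MKI67. Of the 62 genes, 61 had a row (CKS1B was not analysed here) and none is among the 8 genes. Their summed share ran from 25.6 to 140.6 UMIs per 10000 with a median of 50.5. Over the 76 cells, KPNA2 correlated with it at a Spearman rho of 0.380. All points come from 1 run and share a denominator, the cell's total. Deeper cells had more of both: the rho with total UMIs was 0.264 for KPNA2 and 0.326 for the mitotic share. Given total UMIs the partial rho was 0.323, and with cells thinned to 1 depth the rho was 0.442. The part of depth in the result was not tested beyond these values.

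Of 2773 genes outside the mitotic list and the 8 genes, 2.34% reached a rho of 0.3 with the mitotic share, and 11 lay above KPNA2. Of the 8 genes, KPNA2 alone reached 0.3. Mitotic genes themselves, each set against the list without it, had a median rho of 0.282. They ran from 0.595 for ARL6IP1 to -0.0419 for UBE2S, and 9 of the 30 with a mean of at least 1 UMI lay above KPNA2. KPNA2 lay inside this range, but so did the median of the 2773 other genes, 0.0247. Lying inside it therefore does not set KPNA2 apart. Without the 2 cells farthest from the median mitotic share the rho was 0.329, and with each cell left out in turn it ran from 0.355 to 0.413.

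The other 7 genes did not follow the mitotic share to that degree. XPO1 had a rho of 0.218 with it, CSE1L 0.187, RAN 0.0873, RCC1 0.0538, NUTF2 0.0163 and KPNB1 -0.0151. RANBP1 ran the other way at -0.261. All of these values are under 0.3 in size and are not read as a relation. Given total UMIs, RANBP1 stood at -0.254. XPO1 stood at 0.0405 given the ribosomal protein share, a setting added after seeing the data. Divided by spike-in UMIs instead, so that both values carry the amount of RNA in the cell, all 8 genes were positive, from 0.289 for RCC1 to 0.656 for KPNA2, and RANBP1 turned to 0.320. The median rho of KPNA2 with all other genes then shifted to 0.246, against 0.0193 with shares.

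**Figure D3:**
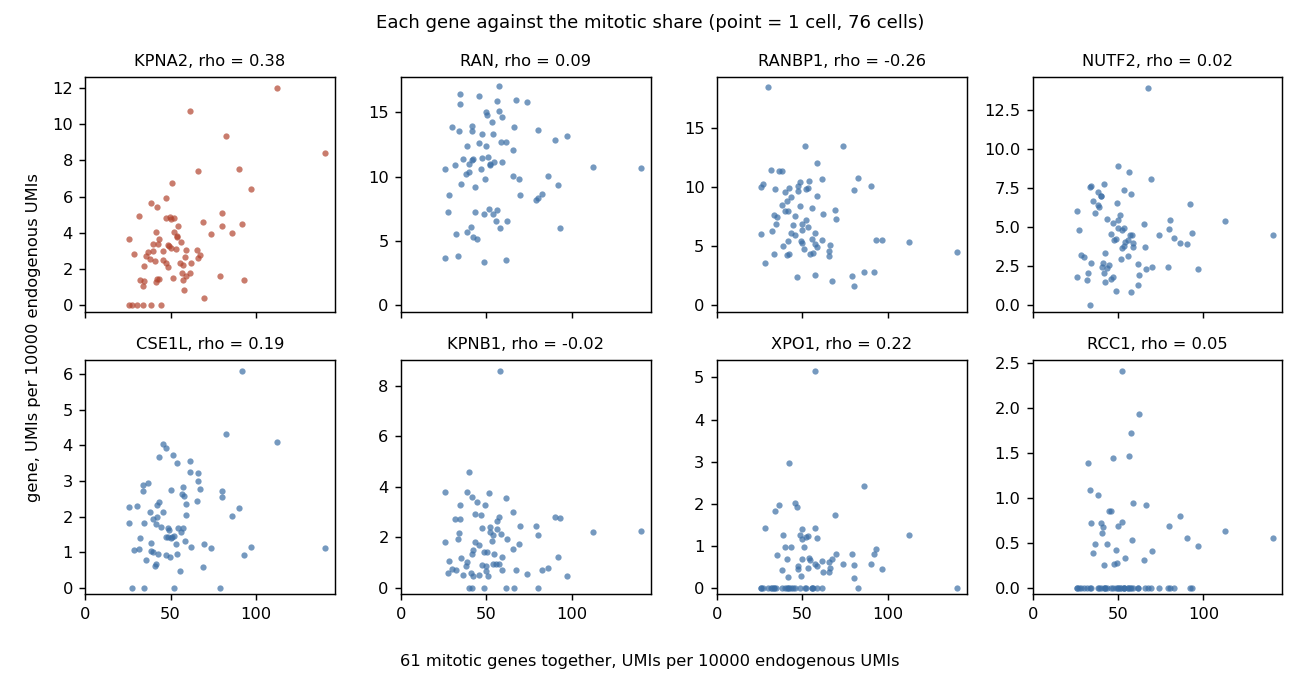
UMIs per 10000 of each of the 8 genes (y axis) against the summed UMIs per 10000 of 61 mitotic genes (x axis), with 1 point for each of 76 cells and the Spearman rho above each panel. KPNA2 climbs with the mitotic share (0.380), while RAN (0.0873) and NUTF2 (0.0163) form level clouds.

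The cells with the highest KPNA2 share are among the 76 behind the rho above, so they illustrate it and add no support. The mitotic genes named for cell 30 are among those of highest rho with KPNA2, so high counts are part of the choice. Cells are named by the number in their title. Cell 30, the highest, had 38 KPNA2 UMIs of 31669 in all, together with 28 UMIs of UBE2C, 25 of CDK1 and 23 of CKS2, and it ranked 2 of 76 in mitotic share. Cell 53, with 33 KPNA2 UMIs (10.7 per 10000), ranked 20 in mitotic share. Cell 56 had 13 KPNA2 UMIs and ranked 8, and cell 2 had 27 and ranked 6. Cell 87 ranked 1 in mitotic share with 140.6 per 10000 and had 15 KPNA2 UMIs of 17847 (8.40 per 10000).

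High mitotic share without KPNA2 also occurred. Cell 85 ranked 4 in mitotic share (93.3 per 10000), with 15 UMIs of TOP2A, 13 of CDK1 and 10 of CKS2, but had 3 KPNA2 UMIs of 21643 and ranked 65 for KPNA2. Leaving out this cell gave the highest of the leave-one-out values, 0.413. RAN was at 10.6 per 10000 in cell 87, against a median of 10.9 over the 76 cells.

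Gene by gene, KPNA2 reached a rho of 0.3 with 5 of the 30 mitotic genes that had a mean of at least 1 UMI, against 2.21% of 2803 genes. The median over the 30 was 0.135, with 24 above 0, against a median of 0.0193 over all 2803 (55.3% above 0). The highest was ARL6IP1 (0.480), a membrane protein of the endoplasmic reticulum. It was followed by UBE2C (0.407), the ubiquitin-conjugating enzyme of the anaphase-promoting complex, and CKS2 (0.392), a subunit of cyclin-dependent kinases. BUB3 (0.338), a spindle checkpoint protein, and CDK1 (0.320), the mitotic kinase, completed the 5. CDK1 was under 0.3 when cells were thinned (0.287), given total UMIs (0.269) and without the 2 cells farthest from the median mitotic share (0.266). BUB3 was under it without the 5 shallowest cells (0.284). ARL6IP1, UBE2C and CKS2 were at or above 0.3 under each setting run, with lowest values of 0.439, 0.347 and 0.344.

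TOP2A (0.284), which untangles chromosomes, MAD2L1 (0.277), of the spindle checkpoint, and the kinesin gene KIF20B (0.250) came next. When cells were thinned, TOP2A stood at 0.458. CCNB1, the mitotic cyclin B1, lay at 0.204, and PLK1, a mitotic kinase, at 0.103. The lowest were CDC20, the activator of the anaphase-promoting complex (-0.0760), the condensin gene SMC4 (-0.0617) and HN1 (-0.0353). CDC20 itself had a rho of 0.535 with the rest of the mitotic list, so the list did not move as 1 block with KPNA2. SMC4 turned to 0.174 when cells were thinned. TPX2, whose protein is held by importin alpha until Ran-GTP frees it, had a mean of 1.34 UMIs and a rho of 0.0239 with KPNA2.

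None of the other 7 genes reached 0.3 with any of the 30 mitotic genes, where 0.571% (NUTF2 and CSE1L) to 2.53% (XPO1) of all 2803 genes did. For RAN that background was 1.39%, for RANBP1 1.28%, for RCC1 1.82% and for KPNB1 1.86%. At such low shares, having none among 30 genes is near the background, and nothing is read from it. The medians of the 7 genes over the 30 were 0.0992 for XPO1, 0.0682 for RCC1, 0.0674 for CSE1L, 0.0345 for RAN, 0.0157 for KPNB1, -0.00473 for NUTF2 and -0.0981 for RANBP1. The nearest values to 0.3 were CSE1L with UBE2C (0.291) and XPO1 with KIF20B (0.289). RANBP1 had its lowest value with TOP2A (-0.298). It stood below 0 with 21 of the 30 genes and above 0 with 9, where 52.8% of all 2803 genes were above 0.

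**Figure D4:**
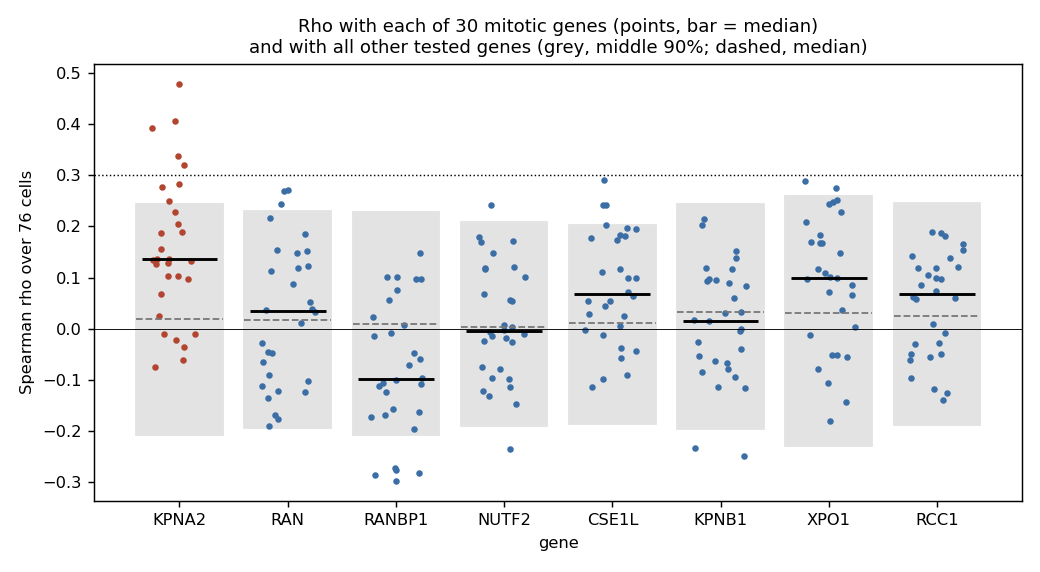
Spearman rho over 76 cells (y axis) of each of the 8 genes (x axis) with each of 30 mitotic genes (points, bar at the median), beside the middle 90% (grey) and the median (dashed) of its rho with 2803 genes, the 30 included; the dotted line marks 0.3. KPNA2 alone has points above the line, 5 of 30, and the bar of RANBP1 lies lowest at -0.0981. Nothing is read from the absence of such points for the other genes.

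As shares, the 8 genes showed little correlation with each other. The median rho over their 28 pairs was 0.0282, against 0.0144 over the 3927003 pairs of other genes with a mean of at least 1 UMI. Divided by spike-in UMIs, the median over the 28 pairs was 0.302, and the median of all other genes with the members was 0.231. RAN and NUTF2, the GTPase and its import carrier, had the highest value at 0.332, and NUTF2 and XPO1 the second at 0.225. RAN and NUTF2 were the only pair to reach 0.3 (1 of 28, against 1.15% of all pairs). That value ran from 0.307 to 0.376 with each cell left out in turn, but dropped to 0.151 when cells were thinned to 10940 UMIs.

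Partners in transport did not stand out as pairs. KPNA2 and KPNB1, whose proteins form the classical import receptor, had the lowest value of all, -0.172. KPNA2 and its exporter CSE1L had 0.0265. RAN had 0.00842 with RANBP1 and 0.0484 with RCC1, which encode its regulators. By comparison, the 435 pairs among 30 mitotic genes had a median of 0.113, with 40 pairs (9.20%) at or above 0.3.

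**Figure D5:**
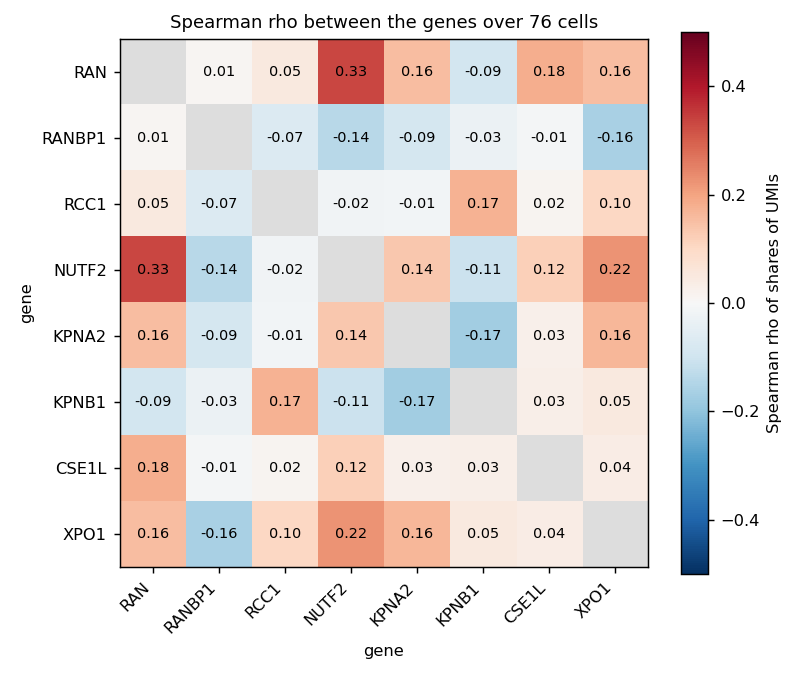
Spearman rho over 76 cells between the shares of each pair of the 8 genes (both axes; colour and printed value). The pair RAN and NUTF2 at 0.332 is the deepest red, and the row of RANBP1 holds no value above 0.00842.

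For the other genes of nuclear transport, a list of 62 importins, exportins, Ran regulators and nucleoporins was used. Of these, 61 had a row (KPNA7 was not analysed here) and 29 a mean of at least 1 UMI. They were less abundant than most of the 8 genes: the median of their means was 0.934 UMI per cell, and none exceeded KPNB1. The highest were the nuclear basket gene TPR (3.86 UMIs, 0 to 22 per cell), the mRNA export factor gene RAE1 (2.68, 0 to 10), SEC13 (2.57, 0 to 13), of the pore scaffold and of vesicle coats, and the importin gene IPO5 (2.22, 0 to 7). KPNA1 (1.54 ± 1.51) and KPNA3 (1.28 ± 1.38) were the next importin alphas after KPNA2. KPNA6, KPNA4 and KPNA5 averaged 0.829, 0.737 and 0.632 UMI. RANGAP1, the GTPase-activating protein of Ran, averaged 0.776 UMI and was seen in 30 cells, and RANBP2, its anchor at the pore, averaged 0.934 UMI and was seen in 40.

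With the mitotic share, 3 of the 29 genes reached 0.3, where 2.34% of all genes outside the mitotic list did: the nucleoporin gene NUP37 (0.445) and the import receptor genes TNPO1 (0.323) and IPO7 (0.302). The median of the 29 was 0.0283, against 0.0247 over all these genes. The other importin alpha genes with a mean of at least 1 UMI, KPNA1 (0.0592) and KPNA3 (-0.123), did not. With KPNA2 none of the 29 reached 0.3, where 2.21% of all 2803 genes did, and nothing is read from that count. The highest were the nucleoporin genes NUP54 (0.263) and NUP155 (0.245), and the lowest was SEC13 (-0.289). With the other 7 genes 1 value reached 0.3, that of KPNB1 with NUP88.

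KPNA2 had a median rho of -0.0504 with 29 S phase genes, against 0.0193 over all 2803 genes. It reached 0.3 with 0 of the 29, but only 2.21% of all genes did so, and nothing is read from that count. With MCM7, a subunit of the replicative helicase, the rho of KPNA2 was -0.281. KPNB1 reached 0.3 with 4 of the 29 (1.86% of all genes), among them the thymidine kinase gene TK1 (0.412) and MCM7 (0.329). XPO1 (2.53% of all genes) and RCC1 (1.82%) did so with 2 each, among them the replication clamp gene PCNA for XPO1 (0.450) and the ribonucleotide reductase gene RRM2 for RCC1 (0.403). When cells were thinned, TK1 with KPNB1 stood at 0.232 and PCNA with XPO1 at 0.239.

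With 29 nucleolar and growth genes, XPO1 reached 0.3 with 3, against 2.53% of all 2803 genes. RAN, RANBP1, RCC1 and KPNA2 did so with 2 each, against 1.39%, 1.28%, 1.82% and 2.21% of all genes. KPNB1 did so with 1, against 1.86%, and CSE1L and NUTF2 with 0, against 0.571% for both. At such counts 1 gene of the 29 is already above these shares, and nothing is read from them. The medians lay between 0.000550 for NUTF2 and 0.0640 for RCC1. NPM1, an abundant nucleolar chaperone gene, had 0.319 with RANBP1 and 0.265 with RAN. PA2G4, a growth-related RNA-binding protein gene, had 0.308 with RCC1 and KPNB1 and -0.347 with KPNA2.

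The genes most like KPNA2 over the 76 cells by Spearman rho, among 2803 genes, included 3 of the mitotic list (ARL6IP1, UBE2C and CKS2). All the genes taken as most like it are named in this paragraph. Mitotic genes made up 30 of the 2803. The values of these 3 mitotic genes were given above and are not a further result. TUBA1C, an alpha tubulin gene with near-identical copies, was highest at 0.481. The others were the vesicle fusion gene VAMP3 (0.439), the chaperone gene HSPA8 (0.418), the splicing regulator gene PTBP1 (0.412), RABGGTB (0.396), CCDC59 (0.377) and the stress-induced GADD45B (0.376). When cells were thinned, TUBA1C stood at 0.318, PTBP1 at 0.236 and GADD45B at 0.299.

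For RAN the most similar genes were MOB1A (0.494), the histone variant gene H3F3A (0.462), MRPL18 (0.442), of the mitochondrial ribosome, SNHG15 (0.415) and H3F3AP4 (0.403), a pseudogene of H3F3A. For RANBP1 they were the ribosomal protein genes RPL14 (0.505) and RPS3 (0.402) and the replication protein gene RPA1 (0.428). For NUTF2 they were HSBP1 (0.402), MARCKS (0.376) and RAB1A (0.373), and for CSE1L they were GPX1 (0.406), UBE2A (0.385) and GSTM3 (0.384). For KPNB1 they were CIRBP (0.422), ZC3H15 (0.419) and TK1. For XPO1 they were the mitochondrial chaperonin gene HSPE1 (0.467), PCNA and the RNA polymerase II gene POLR2B (0.441). For RCC1 they were PTPLAD1 (0.447), the chromatin remodeller gene ATRX (0.443) and RRM2. Each is the top of 2803 values, so a high value is part of the choice. When cells were thinned, all 3 genes of NUTF2 were under 0.3, from 0.134 to 0.243.

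XPO1 ran against the ribosomal protein share of a cell, a relation picked out after its values were seen. Its rho was -0.507 with the summed share of 86 ribosomal protein genes, which averaged 29.3% of UMIs. Of 2722 other genes 5 were lower, 10.7% were at or below -0.3, and the median was -0.0887. The ribosomal protein share itself ran against total UMIs (rho -0.454), and given total UMIs XPO1 stood at -0.452. With spike-in scaling it turned to 0.210. The other 7 genes lay between -0.275 for RCC1 and 0.139 for RANBP1.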

How the data were processed

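The authors deposited 1 table of raw UMI counts, with genes in rows and cells in columns. Tools named in the submitters' processing notes, without saying what each did, are STAR 2.4.0a and cutadapt 1.2.1, and the build named is hg19 (GRCh37). For the UMI counter, annotation, strand use and cell filter, nothing is stated in the sources used here. Column names carry another tag design (N6H4) than the protocol, whose N(4)H(4) tag was used to correct collisions. A row that repeats the column numbers was left out, 80 spike-in rows were kept apart, and 0 columns stayed unmatched to a cell. Doublets were not called.

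Counts were divided by the cell's endogenous total. Spearman rho was computed over cells for genes with a mean of at least 1 UMI (RCC1, below it, was kept as a member), and 0.3 was used as a mark for counting. Intervals are exact Clopper-Pearson and cover counting error only. The functions were tested on simulated data. Python 3.11.15, numpy 2.4.6, pandas 2.3.3 and scipy 1.17.1 were used.

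Members and gene lists were chosen with earlier results of these data known. Genes that could be named were the 8 members, the 4 of highest mean in each list, the 8 mitotic genes of highest and the 3 of lowest rho with KPNA2, the other transport genes with a mean of at least 1 UMI, the 10 genes of highest rho with KPNA2, 5 with RAN and 3 with each other member, and pseudogenes and importin alphas by symbol. Other genes named (CCNB1, PLK1, TPX2, MCM7, TK1, PCNA, RRM2, PA2G4, RANGAP1, RANBP2 and the markers among them, where no part of that rule takes them) were picked by symbol or after their values were seen. Alternatives, 2 of them added after seeing the data, were other scales, filters, cells and measures of correlation.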

Additional observations from a re-analysis of the deposited data

How the results depend on the processing

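Values were recomputed without the 5 cells under the median total divided by 2, with 71 cells thinned to 10940 UMIs (1 draw), with spike-in scaling, with totals free of abundant genes, with tag collisions corrected, by Pearson r of log values, as partial rho given total UMIs, without 2 extreme cells and at other minimum means. The partial rho given the ribosomal protein share and leaving out each cell were added after seeing the data. Of 748 recomputed values 648 stayed within the tolerance, 99 moved further and 1 whose size had been at least 0.3 turned its sign. For rho the tolerance was 0.115, for levels the SD over cells, and for counts and percents a set fold change. The SD over cells is wide for a mean, so the 648 is not read as a measure of robustness. Smaller values that changed sign, such as RANBP1 with the mitotic share and SMC4 with KPNA2, are counted among the 648 or the 99 by how far they moved. With spike-in scaling, KPNA2 had a rho of 0.656 with the mitotic share, a median of 0.345 with mitotic genes and 22 of 30 at or above 0.3, where 35.4% of all genes were. On that scale the median was 0.248 for the other 7 genes with mitotic genes, 0.302 over the 28 pairs, 0.213 for the other transport list and 0.309 for the nucleolar and growth list. The members above the highest spike-in numbered 5 with that scaling, and 1 when the cells' counts but not the spike-ins were thinned. With spike-in scaling, XPO1 with the ribosomal protein share turned to 0.210. The cause was not tested. Under the other settings KPNA2 with the mitotic share ran from 0.323 (given total UMIs) to 0.487, with each cell left out from 0.355 to 0.413. Genes near or under 1 UMI per cell, XPO1 and RCC1 among them, are limited by depth. No paired analysis was possible because there is 1 group.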
